A study of Mus musculus with 9 samples.

Results

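Annexins are a family of cytosolic proteins that bind acidic phospholipids, mostly in a calcium-dependent way. They assemble on the inner face of membranes, where they take part in vesicle traffic, membrane repair and the organization of lipid domains, and several are routinely found as proteins in extracellular vesicles (EVs). The measurements here are of annexin mRNA carried by EVs, not of annexin protein. The family was taken as Anxa1, Anxa2, Anxa3, Anxa4, Anxa5, Anxa6, Anxa7, Anxa8, Anxa9 and Anxa11, and every non-control probe that the array files assign to one of these 10 genes was used, which gave 14 of 55681 probes.

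The 9 samples were total RNA from EVs of mouse embryonic fibroblasts (MEFs), each hybridized to a single-colour (Cy3) Agilent mouse array. PBS-treated MEFs gave 5 samples (replicates 1 to 5) and control MEFs gave 4 (replicates 1 to 4), with no other agent, allele or animal age named for either group. Whether PBS treatment included the pulses by which the study delivered plasmids is not in the labels. Neither is whether replicates were separate cultures, so every p-value reflects the variation among these samples only, and part or all of it may be technical. Arrays lay on 2 slides. PBS-treated replicates 1 to 3 shared slide 1 with control replicates 1 and 2. The other 4 arrays were on slide 2.

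PBS-treated arrays had 16482 to 19224 probes well above background, and control arrays had 12577 to 15549. The 75th percentile signal was 1095 to 2185 on PBS-treated arrays and 434 to 1026 on control arrays, with no saturated spot. All levels below are log2 of the processed signal relative to the 75th percentile of the 8416 probes detected on every array. On this scale 0 is that percentile. Levels of different probes are not compared as amounts, and ratios or sums over probes are read only between groups. Relative to the spike-in probes, the PBS-treated percentile itself stood higher by 1.28 log2 than the control percentile. The source of this offset was not tested. In bulk EV RNA, more vesicles of one kind and more RNA per vesicle cannot be told apart. Among fibroblast markers, 8 to 9 of 10 were detected on each PBS-treated array and 7 to 8 on each control array. Their summed linear levels (1 is the percentile) were 12.2 to 14.4 and 11.4 to 13.9. Thy1 was on no array. Of the 9 fibroblast markers tested, 2 were called higher and 3 lower, beside 31.5% and 20.7% of all genes tested. Lum, 1 of the 2, was above background on 4 PBS-treated arrays and 0 control arrays. It entered the test through its PBS-treated arrays alone. The markers Cdh1, Epcam and Krt18 of epithelia, Cdh5 and Tek of endothelium and Adgre1, Cd68 and Lyz2 of macrophages were on no array. Other markers were above background on some arrays, with Krt14 on 4 and Krt5 on 2. Pecam1 of endothelium and Hba-a1 of erythroid cells were on 3 each, and Krt8, Ptprc and Tyrobp on 1 each. Summed levels of the epithelial list were 0.031 to 0.115 on PBS-treated arrays and 0.0782 to 0.203 on control arrays. For the endothelial list they were 0.0996 to 0.138 and 0.239 to 0.411. The macrophage and leukocyte list had 3 to 4 of 8 markers detected on PBS-treated arrays and 3 on each control array, with summed levels of 1.08 to 2.08 and 2.11 to 3.13. Among its members Cd14 was higher by 2.21 log2 while Itgam and Csf1r were lower, with differences of -1.30 and -2.70 log2. The endothelial marker Kdr, above background on all 9 arrays, and the epithelial marker Krt19, on 5 arrays, were lower, with differences of -1.43 and -0.93 log2. The part of these markers in the annexin differences was not tested.

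Annexin mRNA was higher in PBS-treated EVs for most of the family. Of 9 annexin genes with a tested probe, 8 were called higher (limma, Benjamini-Hochberg adjusted p under 0.05 over 14314 genes), beside 31.5% of all genes, and 0 were called lower, beside 20.7% of all genes. The median log2 difference, PBS-treated minus control, was 1.39 over the 9 annexins and -0.02 over all genes tested. Anxa1, Anxa4, Anxa5, Anxa6 and Anxa11 rose 2.61-fold to 3.26-fold. Anxa7 rose 2.0-fold with overlapping groups, Anxa8 1.47-fold and Anxa2 1.33-fold, and Anxa3 did not pass the test. Every PBS-treated array lay above every control array for 7 of the 9 genes, beside 29.4% of all genes, and below for 0, beside 17.6%. Each of the 9 was detected above background on every array, and with the test limited to such genes 8 were again called higher, beside 32.9% of all of them. Anxa9 was not tested, because its probe was above background on 3 PBS-treated arrays and 0 control arrays.

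Because probes of one gene gave different answers in some cases, the probes behind the clearest contrasts are shown here as the array files give them, with positions on mm9. Each probe is 60 bases long. The first Anxa1 probe (A_55_P2092826) lies at chr19:20447938-20447997 on the minus strand, bases 1321 to 1380 of its RefSeq transcript, and 30 of its bases are printed with the hexamer AATAAA, the usual polyadenylation signal, in capitals. The second Anxa1 probe (A_66_P120567, chr19:20449722-20449781, minus strand) reads bases 991 to 1050 and is printed whole without capitals. The Anxa3 probe (A_55_P2056325, chr5:97253925-97253984, plus strand) and the second Anxa11 probe (A_55_P2084820, chr14:26694168-26694227, plus strand) are also whole. The main Anxa11 probe (A_55_P1977583, chr14:26706231-26706290, plus strand) and the Anxa2 probe (A_55_P2110713, chr9:69339532-69339591, plus strand) are shown over the 30 bases around the same hexamer. The first 30 bases are given for the Anxa8 probes, A_51_P207591 (chr14:34913661-34913720, plus strand) and A_55_P1965338 (chr14:34913148-34913207, plus strand), which gave different answers.
Anxa1 A_55_P2092826: cctgagaaagaagtttacatatAATAAAat
Anxa1 A_66_P120567: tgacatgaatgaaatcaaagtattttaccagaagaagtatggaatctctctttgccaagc
Anxa2 A_55_P2110713: tactgtgtcgtgAATAAAccgtttttactt
Anxa3 A_55_P2056325: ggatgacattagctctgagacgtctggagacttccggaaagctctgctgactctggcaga
Anxa8 A_51_P207591: atcctctgatcgtggtctccgagcctgaag
Anxa8 A_55_P1965338: gtataccgcccaccctagcattacctctga
Anxa11 A_55_P1977583: aagctgtttccaAATAAAagtcagccagtt
Anxa11 A_55_P2084820: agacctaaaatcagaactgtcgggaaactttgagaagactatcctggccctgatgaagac

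AATAAA or ATTAAA occurred in 5 of the 14 annexin probes and in 13.7% of all 55681 probes. Those 5 were the main probes of Anxa1, Anxa2 and Anxa11, the second probe of Anxa7 and the probe of Anxa9. Probes with the hexamer stood at members with a small rise (Anxa2) and at members with a large one (Anxa11).

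Anxa6, the annexin with a duplicated core, which binds cholesterol-rich membranes, showed the largest difference of the family. Its levels were 3.05, 3.22, 3.1, 2.92 and 2.92 in PBS-treated EVs, against 1.56, 1.57, 1.1 and 1.12 in control EVs. The lowest PBS-treated value stood 1.35 log2 above the highest control value. The difference was 1.71 ± 0.15 log2 (SE, adjusted p = 3.59e-05, limma), a 3.26-fold rise. By distance between mean-centred log2 values over the 9 arrays, the genes whose pattern lay nearest to that of Anxa6 were Psmd12 (distance 0.135), Bnip3l (0.206) and Spc25 (0.211).

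Anxa5 binds phosphatidylserine exposed on the outer leaflet and is widely used as a probe for it. It had 2.06, 2.38, 2.33, 2.14 and 2.21 in PBS-treated EVs, against 1.16, 1.0, 0.18 and 0.37 in control EVs. The groups did not overlap, and the difference was 1.55 ± 0.22 log2 (SE, adjusted p = 0.000462, limma). The control values split by slide, with replicates 1 and 2 of slide 1 above replicates 3 and 4 of slide 2. The same split was seen at the main probes of Anxa1, Anxa2, Anxa3, Anxa4, Anxa6, Anxa8 and Anxa11, but not at that of Anxa7. Anxa4, which forms lattices on membranes, had -0.62, -0.62, -0.64, -0.63 and -0.61 in PBS-treated EVs, against -1.84, -1.91, -2.46 and -2.35 in control EVs. Its PBS-treated values had an SD of 0.0087 (n = 5), against an SD of 0.31 in control EVs (n = 4), which includes the step between slides. The difference was 1.51 ± 0.15 log2 (SE, adjusted p = 7.3e-05, limma).

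Anxa11 carries a long disordered N-terminal region, binds the calcium sensor ALG-2 and tethers RNA granules to lysosomes in neurons. Its main probe read -1.5, -1.37, -1.78, -1.51 and -1.29 in PBS-treated EVs, against -2.88, -2.78, -3.27 and -3.02 in control EVs. All 5 PBS-treated values were above all 4 control values, with a difference of 1.5 ± 0.15 log2 (SE, adjusted p = 6.78e-05, limma). It was 0.80 log2 under normexp with percentile scaling and 1.07 log2 in the authors' value table, and passed in both. Normexp was run with an offset of 50 added to each signal, which shrinks the differences of dim probes. The second Anxa11 probe, printed above, was above background on 2 PBS-treated arrays and 0 control arrays and was not tested.

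Anxa1, the glucocorticoid-induced annexin that acts on formyl peptide receptors and restrains phospholipase A2, had 2.34, 2.43, 2.61, 2.21 and 2.22 in PBS-treated EVs at its main probe, against 1.21, 1.35, 0.60 and 0.75 in control EVs. The groups did not overlap, and the difference was 1.39 ± 0.18 log2 (SE, adjusted p = 0.000329, limma), a 2.61-fold rise. Its second probe, which reads further from the 3′ end, had -1.10, -0.72, -0.97, -0.86 and -0.58 in PBS-treated EVs, against -2.28, -1.37, -2.5 and -3.51 in control EVs. That difference was 1.57 ± 0.37 log2 (SE, adjusted p = 0.00712 over 17758 probes, limma), so both Anxa1 probes rose. The control values at the second probe were the more scattered, with an SD of 0.88 against 0.36 at the main probe (n = 4 arrays each).

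Anxa8, an annexin found on late endosomes of human cells, was read by a probe spotted 10 times on each array. Its levels were -0.52, -0.43, -0.37, -0.56 and -0.54 in PBS-treated EVs, against -0.89, -0.86, -1.27 and -1.14 in control EVs. The difference was 0.55 ± 0.12 log2 (SE, adjusted p = 0.0052, limma), a 1.47-fold rise with no overlap. The 10 spots varied by 4.39% to 10.02% (coefficient of variation) on PBS-treated arrays and by 5.67% to 27.45% on control arrays. The second Anxa8 probe had -3.52, -3.34, -3.48, -3.42 and -3.51 in PBS-treated EVs, against -3.57, -3.42, -3.49 and -3.62 in control EVs. These values overlapped, and the difference of 0.07 ± 0.10 log2 did not pass (SE, adjusted p = 0.574 over probes, limma). The call for Anxa8 therefore rests on the repeated probe alone. It was lost with the percentile taken over all probes (adjusted p = 0.108) and with no filter on dim probes (adjusted p = 0.0582), out of a range of 2.01e-06 to 0.108 over 28 alternatives.

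Anxa2 forms a heterotetramer with S100a10 and binds plasminogen and its activator at the cell surface. Its levels were 4.64, 4.55, 4.50, 4.35 and 4.30 in PBS-treated EVs, against 4.20, 4.27, 3.86 and 3.89 in control EVs. The groups did not overlap, but the nearest values stood only 0.04 log2 apart. The difference was 0.41 ± 0.14 log2 (SE, adjusted p = 0.0323, limma), a 1.33-fold rise. Leaving out 1 array ended this call in 5 of 9 cases. The adjusted p was 0.078, 0.075 and 0.0567 without PBS-treated replicate 1, 2 or 3, and 0.0763 and 0.0812 without control replicate 3 or 4, out of a range of 2.91e-06 to 0.259 over 28 alternatives.

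Anxa7, also named synexin, promotes fusion of secretory granules. Its main probe read -2.20, -2.25, -3.59, -1.84 and -2.07 in PBS-treated EVs, against -3.17, -3.48, -3.73 and -3.17 in control EVs. PBS-treated replicate 3 lay within the control range and the other PBS-treated values above it. The difference was 1.0 ± 0.35 log2 (SE, adjusted p = 0.0386, limma). The call was lost without PBS-treated replicate 1, 2, 4 or 5 (adjusted p = 0.0796, 0.0782, 0.0773 and 0.0777) and without control replicate 1, 2, 3 or 4 (0.0548, 0.0778, 0.0967 and 0.0581). Without PBS-treated replicate 3 the difference was 1.30 log2 and the call was kept. With normexp background correction and percentile scaling it was 0.25 log2 (adjusted p = 0.63, the highest of 28 alternatives, with 0.000287 the lowest).

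The second Anxa7 probe (A_51_P402458) showed no such outlying array. It had -4.85, -4.91, -4.37, -4.44 and -4.41 in PBS-treated EVs, against -5.83, -5.77, -6.23 and -6.33 in control EVs, and was above background on 5 PBS-treated arrays and 0 control arrays. It entered the test through its PBS-treated arrays alone. Control arrays give only an approximate bound. On the main scale, PBS-treated EVs were 1.40-fold above the lowest signal that counted as well above background on each control array. That signal is not a strict ceiling. On PBS-treated replicate 3, for example, the second Anxa11 probe counted at a processed signal of 15.49 and the Anxa13 probe did not at 18.42. Over the family, 9 of the 11 annexin probes above background on all 9 arrays were called higher, beside 30.8% of all such probes, and 0 were called lower.

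Anxa3 had -2.18, -2.03, -2.16, -1.70 and -1.67 in PBS-treated EVs, against -1.83, -1.81, -2.30 and -2.47 in control EVs. The groups overlapped, and the difference of 0.16 ± 0.20 log2 did not pass (SE, adjusted p = 0.519, limma). The 2 slides disagreed. On slide 1 the PBS-treated mean was below the control mean by a difference of -0.30 log2, and on slide 2 it was above by 0.70 log2. Anxa9, which lacks working calcium-binding sites, had -5.97, -5.97, -6.03, -6.21 and -5.86 in PBS-treated EVs, against -6.19, -6.79, -5.78 and -4.81 in control EVs. With probes admitted from 1 array above background, its difference was -0.12 log2 (adjusted p = 0.809, limma).

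**Figure D1:**
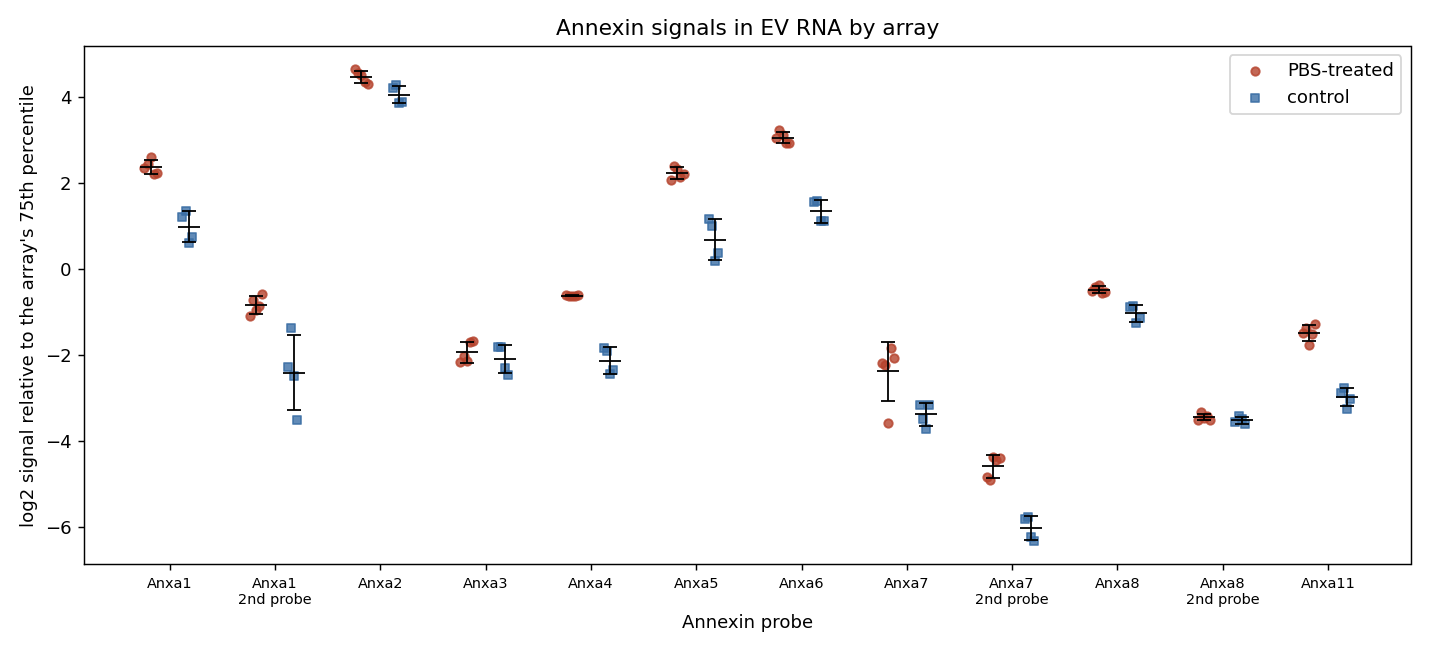
Levels of the 12 tested annexin probes on each array, on the log2 scale set to 0 at the 75th percentile of each array (vertical axis), with PBS-treated arrays (circles, n = 5) left of control arrays (squares, n = 4) at each probe. Bars are means ± SD. The groups separate at both Anxa1 probes and at Anxa4, Anxa5, Anxa6 and Anxa11, while they overlap at Anxa3, the main Anxa7 probe and the second Anxa8 probe.

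Within slide 1 the differences were 1.18 log2 for Anxa1, 0.33 for Anxa2, 1.25 for Anxa4, 1.18 for Anxa5, 1.56 for Anxa6, 0.65 for Anxa7, 0.43 for Anxa8 and 1.29 for Anxa11. Within slide 2 they were 1.54 log2 for Anxa1, 0.45 for Anxa2, 1.78 for Anxa4, 1.90 for Anxa5, 1.81 for Anxa6, 1.5 for Anxa7, 0.65 for Anxa8 and 1.75 for Anxa11. All of these 8 differences were thus above 0 on both slides and larger on slide 2. Only for Anxa3 did the slides differ by a test of the difference itself (0.998 log2 for slide 2 minus slide 1, adjusted p = 0.0145 over all genes, limma). For the other members the adjusted p of that interaction was 0.0662 or more, and 1338 of 14314 genes passed it. Slide 1 alone called 7 annexins higher, beside 31.1% of all genes, and slide 2 alone called 9, beside 33.1%.

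**Figure D2:**
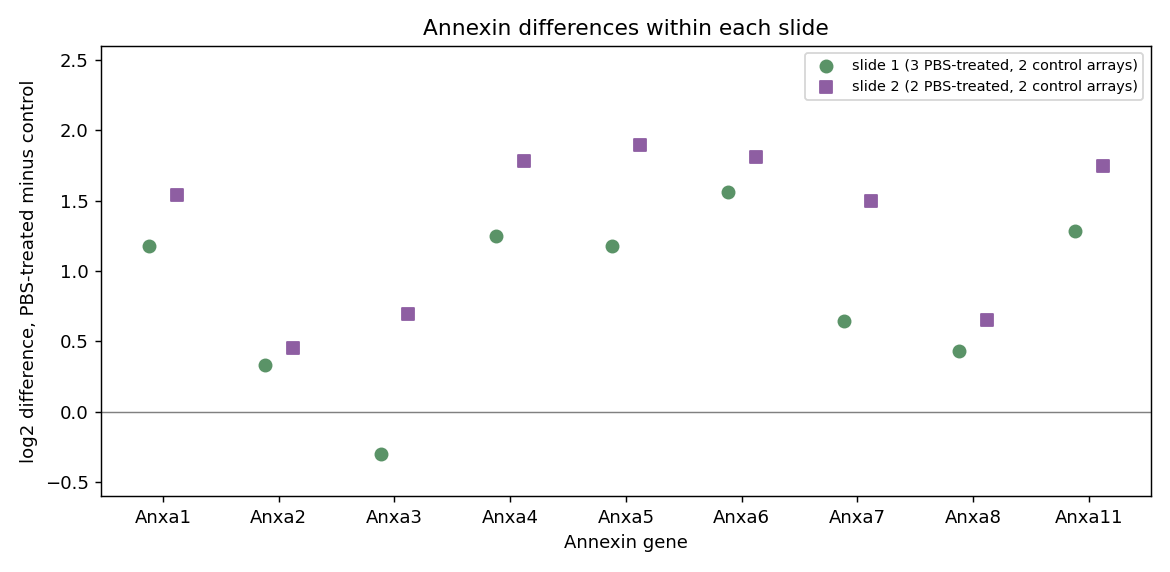
Log2 difference of each annexin, PBS-treated minus control (vertical axis), within slide 1 (circles, 3 PBS-treated and 2 control arrays) and within slide 2 (squares, 2 and 2 arrays). Anxa3 is below 0 on slide 1 (-0.30) and above 0 on slide 2 (0.70). The other members are above 0 on both.

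The choice of scaling moved the size of the differences. Under spike-in scaling they were 2.66 log2 for Anxa1, 1.69 for Anxa2, 1.43 for Anxa3, 2.79 for Anxa4, 2.82 for Anxa5, 2.98 for Anxa6, 2.28 for Anxa7, 1.83 for Anxa8 and 2.78 for Anxa11, and all 9 passed. That scaling moved the median of all genes to 1.26 log2, with 8921 genes called higher and 721 lower, where the percentile over detected probes gave 4511 higher and 2962 lower. A percentile over all probes gave 3526 higher and 1352 lower with a median of 0.39, and normexp with percentile scaling gave 1893 higher and 4658 lower with a median of -0.51. The annexin median was 2.66 under spike-in scaling and 1.79 and 0.80 under these. Among the 30197 probes above background on no array the median difference was -1.34 log2. Such probes hold no measured level, and the percentile subtracted from them stood 1.28 log2 higher in PBS-treated arrays relative to the spike-in probes. The value is therefore not read as a fall of dim transcripts. Anxa1, Anxa4, Anxa5, Anxa6 and Anxa11 passed under each of 28 alternatives, Anxa8 under 26, Anxa2 under 15, Anxa7 under 12 and Anxa3 under 2. Anxa3 was below 0 with normexp and percentile scaling (-0.05 log2), with array weights (-0.14), within slide 1 and without control replicates 3 and 4 (-0.13).

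**Figure D3:**
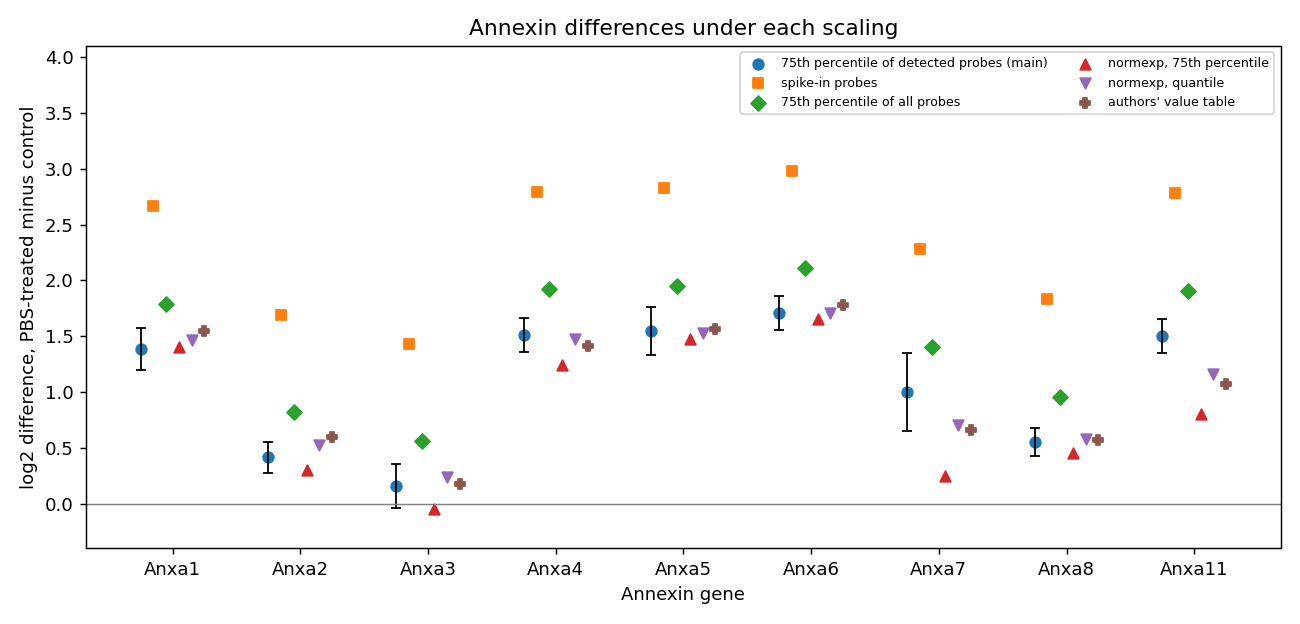
Log2 difference of each annexin, PBS-treated minus control (vertical axis), under 6 scalings (symbols), with the SE as a bar at the main scale. Spike-in scaling gives the highest value for each gene, from 1.43 for Anxa3 to 2.98 for Anxa6, and normexp with percentile scaling gives the lowest for 8 of the 9.

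A single shift per array cancels in the log2 ratio between 2 annexins on the same array. Of 36 pairs of annexins, the ratio did not overlap between groups for 15, beside 39.4% of all pairs of tested genes and 51.8% of pairs of genes above background on all 9 arrays, so the count stood near the background. These 15 were all the pairs that set one of Anxa1, Anxa4, Anxa5, Anxa6 and Anxa11 against one of Anxa2, Anxa3 and Anxa8, a grouping made after the values were seen. The sets were those with the larger and the smaller rises. A difference in ratio is the difference between the rises, so this separation is no further support for the grouping. Among the 10 pairs within the first set, among the 3 pairs within the second and among the 8 pairs with Anxa7, the groups did not separate in any. The Anxa2 to Anxa6 ratio was 1.42 ± 0.10 log2 in PBS-treated EVs (SD, n = 5) and 2.72 ± 0.06 in control EVs (SD, n = 4). The Anxa1 to Anxa8 ratio was 2.85 ± 0.09 log2 in PBS-treated EVs and 2.02 ± 0.17 in control EVs, with the same n. By contrast, the Anxa1 to Anxa4 ratio was 2.99 ± 0.17 log2 in PBS-treated EVs and 3.12 ± 0.09 in control EVs. With normexp values, 12 of the 15 pairs between the sets separated, with 1 pair within the first set, 1 within the second and 1 with Anxa7. In the authors' value table, where background and scaling both differ, the counts were 10, 2, 1 and 3. Both alternatives were added after the data were seen.

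**Figure D4:**
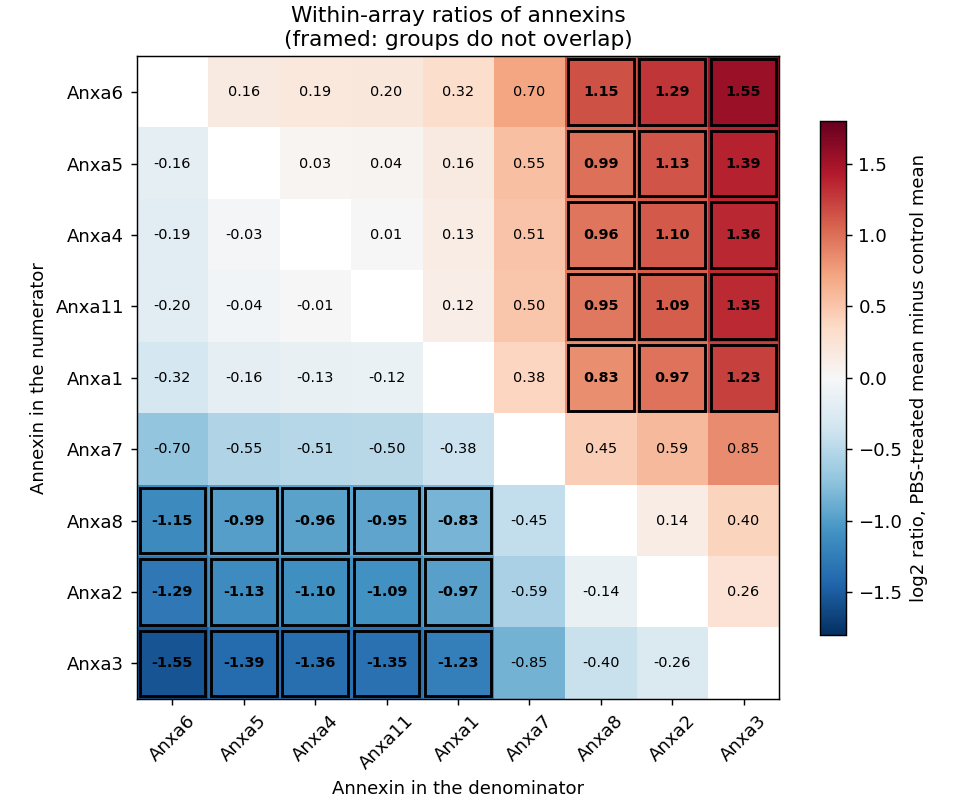
Difference between the groups in the within-array log2 ratio of each pair of annexins, PBS-treated mean minus control mean, with the numerator in rows and the denominator in columns (colour and printed value). Frames mark the 15 pairs, each shown in both orientations, whose PBS-treated and control ratios do not overlap. They fill the blocks that set Anxa6, Anxa5, Anxa4, Anxa11 and Anxa1 against Anxa8, Anxa2 and Anxa3, a grouping by size of rise made after the values were seen.

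Promoter sequence was examined for the members with an entry in the promoter set used. The 250 bases before the annotated start were searched on both strands for motifs of general and inducible transcription factors. The TATA box was searched as TATAAA and the GC box as GGGCGG. The AP-1 site was searched as TGANTCA. The CCAAT box was searched by its own letters and the E-box as CACGTG. NF-kB sites were searched under the usual consensus. The motifs do not overlap one another in the sequences printed. The set, of RefSeq promoters on GRCm38.p6, held 11 promoters for 8 of the 10 genes. It held none for Anxa3 and Anxa6, so neither was searched. A TATA box was in those of Anxa1 and Anxa2, beside 12.4% of 32851 promoters. A GC box was in those of Anxa2, Anxa7 and Anxa11 (32.7% of all), an AP-1 site in that of Anxa2 (6.7%), an E-box in 1 of Anxa7 (6.0%), an NF-kB site in 1 of Anxa4 (3.9%) and a CCAAT box in 0 of 11 (33.8%). Anxa1, with a 2.61-fold rise, and Anxa2, with a 1.33-fold rise, are the members with a TATA box and are printed 5′ to 3′ up to the base before the start, with the motifs found in capitals. The Anxa1 stretch is chr19:20390672-20390921 on the minus strand and the Anxa2 stretch chr9:69453433-69453682 on the plus strand.
Anxa1: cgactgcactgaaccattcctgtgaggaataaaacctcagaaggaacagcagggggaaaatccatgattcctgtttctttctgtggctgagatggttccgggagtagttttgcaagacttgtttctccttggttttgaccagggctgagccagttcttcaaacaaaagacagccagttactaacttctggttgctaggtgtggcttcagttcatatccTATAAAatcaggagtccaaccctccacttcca
Anxa2: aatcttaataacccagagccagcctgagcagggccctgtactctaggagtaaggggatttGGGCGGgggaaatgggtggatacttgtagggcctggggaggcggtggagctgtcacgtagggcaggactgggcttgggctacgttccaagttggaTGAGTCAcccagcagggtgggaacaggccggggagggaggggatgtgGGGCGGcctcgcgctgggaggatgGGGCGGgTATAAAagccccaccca

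The mRNAs of proteins that bind annexins were measured on the same arrays, and the counts below stand beside 31.5% of all genes called higher and 20.7% called lower. Under normexp with percentile scaling these shares were 13.2% and 32.5%. The offset of 50 in normexp shrinks the differences of dim genes before the percentile is subtracted. Of 8 tested genes for S100 and EF-hand partners, 6 were called higher and 0 lower on both scales, with a main-scale median difference of 1.08 log2. Fewer than 6 were called higher under 11 alternatives. With array weights, and with slide 1 alone, 1 was called lower. S100a11, which binds Anxa1, averaged 1.58 ± 0.02 in PBS-treated EVs and 0.39 ± 0.13 in control EVs (SD), a difference of 1.19 ± 0.10 log2 (SE, adjusted p = 3.4e-05, limma). S100a1 differed by 1.46 ± 0.19 and Sri, the annexin-binding protein sorcin, by 0.70 ± 0.13 log2 (SE). S100a10, the subunit of the Anxa2 heterotetramer, differed by 0.15 ± 0.19 log2 (SE, adjusted p = 0.514, limma) and did not pass. It was named after its values were seen.

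On the route around Anxa1, the receptor genes Fpr1, Fpr2 and Fpr3 were above background on 0 arrays. Of 3 tested genes, 2 were called higher, and 1 under each of 6 alternatives, normexp with percentile scaling among them. Pla2g4a, the cytosolic phospholipase A2 that Anxa1 restrains, averaged -2.26 ± 0.25 in PBS-treated EVs and -5.50 ± 0.90 in control EVs (SD), a difference of 3.25 ± 0.39 log2 (SE, adjusted p = 0.000187, limma), with 2 of 4 control arrays above background. The Pla2g4a difference was 1.04 log2 under normexp with percentile scaling and 1.48 log2 in the authors' value table. Nr3c1, the glucocorticoid receptor, differed by 0.56 ± 0.12 log2 (SE, adjusted p = 0.00348, limma).

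Genes of plasma membrane repair, a process that uses several annexins, had 4 of 9 tested members called higher and 0 lower, with a median of 0.33 log2, and 1 higher and 1 lower under normexp with percentile scaling. Dysf, which encodes the repair protein dysferlin, was above background on 5 PBS-treated arrays and 0 control arrays. Set against the lowest counted signal of control arrays on the main scale, it stood 2.42-fold higher, an approximate bound. It entered the test, and the count of 4, through its PBS-treated arrays alone. Ehd1 and Ehd2, membrane-remodelling ATPases of endocytic membranes, differed by 0.93 ± 0.10 and 0.88 ± 0.13 log2 (SE), both called higher. Ehd2 was at 0.08 log2 and Dysf at 0.06 log2 under normexp with percentile scaling, and neither passed there.

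Genes for enzymes that place phosphatidylserine, the lipid that Anxa5 binds, had calls in both directions. Of 5 tested genes, 2 were called higher and 2 lower, with a median of -0.37 log2, and 1 higher and 3 lower under normexp with percentile scaling. Plscr1, phospholipid scramblase, rose by 2.85 ± 0.14 log2 (SE, adjusted p = 2.05e-06, limma), with 2 of 4 control arrays above background. Its difference was 1.28 log2 under normexp with percentile scaling and 1.66 log2 in the authors' value table. Tmem30a, the chaperone subunit of flippases, rose by 1.89 ± 0.36 log2 (SE, 2 of 4 control arrays above background), and the flippase gene Atp11a fell, with a difference of -1.93 ± 0.24 log2 (SE, adjusted p = 0.000221, limma).

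Copines are another family of calcium-dependent phospholipid-binding proteins, built on C2 domains. Of 5 tested, 4 were called higher and 1 lower, with a median of 1.04 log2, which was -0.15 under normexp with percentile scaling, where 1 was called higher and 1 lower. Cpne1 differed by 1.82 ± 0.20 log2 (SE, adjusted p = 0.000107, limma) and Cpne2 by 0.92 ± 0.18 log2 (SE), with 3 of 4 control arrays above background for Cpne2. Cpne1 was at 0.99 log2 under that scaling. Cpne3 was above background on 0 control arrays and entered the count through its PBS-treated arrays alone. Set against the lowest counted signal of control arrays on the main scale, it stood 1.37-fold higher, an approximate bound. Its fitted difference was -0.37 log2 under normexp with percentile scaling. In plasminogen activation, the surface reaction that Anxa2 assists, Plgrkt, a plasminogen receptor, rose by 0.91 ± 0.18 log2 (SE) and Plaur, the urokinase receptor, by 1.46 ± 0.32 log2 (SE). For Plaur, 2 of 4 control arrays were above background, and Plg itself was above background on 0 arrays. Plat, a plasminogen activator, differed by -0.61 ± 0.35 log2 (SE, adjusted p = 0.18, limma) and did not pass. Plat was named after its values were seen. Plau, Serpine2 and Serpinb2 were not tested. Tmem30a, Cpne2 and Plaur did not pass under normexp with percentile scaling, at 0.04, 0.16 and 0.05 log2.

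**Figure D5:**
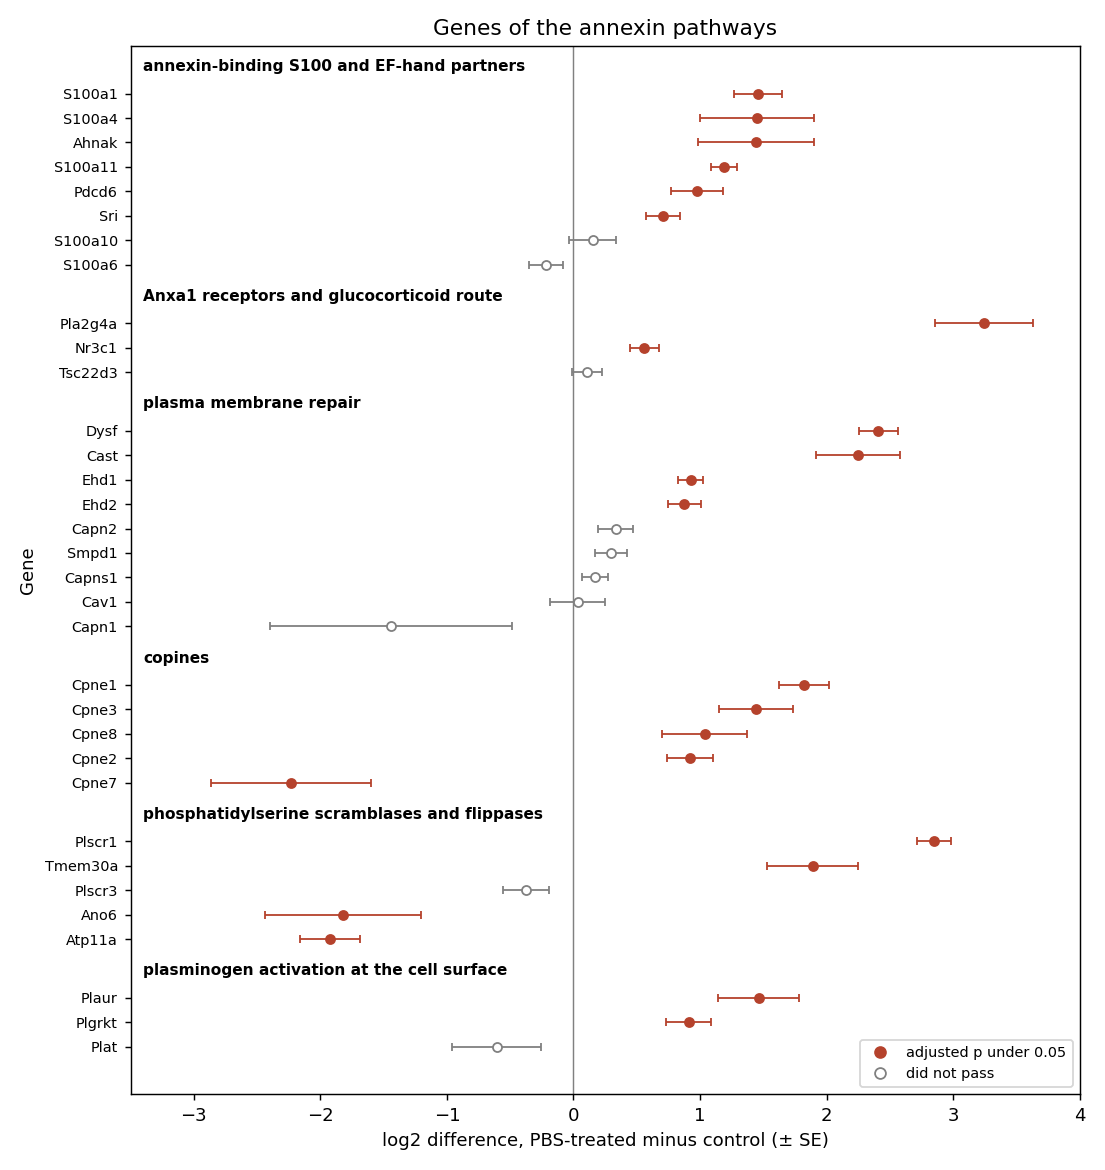
Log2 difference, PBS-treated minus control, ± SE (horizontal axis) for tested genes of the 6 lists around the annexins. Filled symbols passed an adjusted p of 0.05 over all genes and open symbols did not. Most S100 partners lie right of 0, and Atp11a, Ano6 and Cpne7 are the called genes left of it.

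Probes for further annexin entries gave no measurable level. Those named Anxa10, Anxa13, ENSMUST00000089525 and LOC100048867 were above background on 0 arrays, and LOC635583 was above background on 1 control array only.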

How the data were processed

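RNA from EVs of PBS-treated (5) and control (4) MEFs was hybridized by the authors to Agilent mouse arrays. Per the file headers, deposited intensities are processed signals from Agilent Feature Extraction 10.7.3.1, already background-subtracted, with probe positions on mm9. The authors' value table is on a log2 scale and ranked probes as the mean signal did, with a median of 5.97 on each array and its centring not stated. It was used only as an alternative.

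Processed signals were taken to log2 and centred on the 75th percentile of the 8416 probes that all 9 arrays detected. Non-uniform spots were left out and spots of a probe averaged. Probes well above background on at least 4 arrays (17758) were tested, and a gene took its tested probe with the highest mean. Groups were compared with limma 3.58.1 in R 4.3.3 (lmFit, eBayes, two-sided, Benjamini-Hochberg), a step tested on simulated data. RefSeq matched 26413 probes and renamed 3093. A median of 29.6% of probes were well above background per array, and the number of arrays limits precision. Alternatives covered scaling, background, filter, probe choice, weights, slide, replicate number, the methods' t-test and left-out arrays. Normexp background correction used an offset of 50.

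The members and lists were chosen with earlier results of these data known. Of each partner list up to 3 called genes with the smallest p were named, and for Anxa6 the 3 genes nearest in pattern. 1 gene of these lists is not reported here.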

Additional observations from a re-analysis of the deposited data

Results flagged for a closer look

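At the main Anxa7 probe (A_55_P1962039), PBS-treated replicate 3 was at -3.59, far from the nearest PBS-treated value of -2.25 (gap over range 0.764, n = 5). It was the 1 such array among 28 groups of annexin values examined, and chance alone marks about 1 group in 20. The second Anxa7 probe on the same array was at -4.37, the highest of the 5.

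The Anxa3 difference on slide 2 exceeded that on slide 1 by 0.998 log2 (adjusted p = 0.0145 for the interaction, limma), with 1338 genes of 14314 passing the same test. On slide 1 PBS-treated Anxa3 values were -2.18, -2.03 and -2.16, against -1.83 and -1.81 in control EVs. On slide 2 they were -1.70 and -1.67, against -2.30 and -2.47 in control EVs.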

How the results depend on the processing

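The count of all called genes was 7473 and was between 6648 and 7361 with 1 array left out. It was 4878 with the percentile over all probes and 4503 with only probes above background on all 9 arrays, where fewer genes were tested. The count of annexins called higher was 8, between 6 and 7 with 1 array left out, and 5 with no filter on dim probes. No annexin was called lower under any alternative run. Same-numbered arrays deviated together for replicates 1, 2 and 4 (r = 0.703, 0.729 and 0.742), whose arrays shared a slide. Those of replicate 3 did not (r = -0.536) and lay on different slides. Of 4 control arrays, 2 correlated best with their own number. Slide and replicate number cannot be separated in this check, so it does not tell whether the numbers pair the samples. With the replicate number as a block, 7445 genes and 7 annexins were called higher or lower, with Anxa2 at adjusted p = 0.0503. Without control replicates 3 and 4, 6 annexins were called higher. Cpne3 turned to -0.37 log2 under normexp with percentile scaling. Of the other values of named partner genes, 428 kept their side of the threshold and 12 did not, of which 5 were of Nr3c1. The cause of these changes was not tested.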
